A study of Solanum lycopersicum with 6 samples.

Results

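Expansins and the enzymes that cut, rejoin or demethylate cell wall polysaccharides were followed in leaf discs of tomato (Solanum lycopersicum) given loliolide, a metabolite of carotenoids. The members were chosen by name, as the array probes designed on a RefSeq transcript of a gene whose symbol or synonym starts with EXP, XTH, XET, CEL, TBG or PME. Polygalacturonases were left out. This gave 85 probes of 36 genes, among 43603 non-control probes of 33931 genes or unnamed transcripts on the array. Of 42 genes with such names in the RefSeq annotation of assembly SLM_r2.1, EXP12, EXPA6, XTH16, XTH9, PME3 and PMEI matched no probe. Discs of 1 cm were cut from Micro-Tom plants, a dwarf laboratory line, 4 weeks old. The discs floated for 12 h at 25 °C in continuous light, either on 300 µM loliolide (3 samples) or on 0.1% methanol, the control (3 samples). A cycle of 16 h light and 8 h dark is also recorded for all 6 samples. The labels do not say whether the loliolide solution also held methanol. The RNA of each sample went onto 1 Agilent array, read in 1 colour. The question, given by the series title, was which tomato genes respond to loliolide.

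The wall of a growing plant cell is a mesh of cellulose fibrils tied by xyloglucan and embedded in pectin. Expansins loosen this mesh without cutting it, xyloglucan endotransglucosylase/hydrolases (XTH, earlier called XET) cut xyloglucan chains and rejoin them, and endoglucanases (Cel) cleave glucan chains. Beta-galactosidases of the TBG family trim galactose from wall polymers, and pectin methylesterases (PME) remove methyl groups from pectin, which changes how it gels and how easily it is degraded. Many of these tomato genes are known from fruit softening, seed germination, organ shedding and growth.

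All values below are log2 signals after subtraction of each array's 75th percentile, so that 0 stands for a probe as bright as that percentile. A difference is loliolide minus methanol. Levels of different probes are not compared, since a probe's brightness also depends on its sequence. A probe entered the test if the scanner software called it well above background on the 3 arrays of loliolide, of methanol or of both, which held for 73 of the 85 wall enzyme probes and for at least 1 probe of each of the 36 genes. The 12 probes left out belong to PE1 (9), PME2.1 (2) and EXPB2 (1). Over the array 37424 probes were tested.

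Every loliolide array had more probes well above background (86.9% to 87.6%) than every methanol array (84.5% to 85.3%). All 3 loliolide arrays lay on one slide and all 3 methanol arrays on another, so the effects of slide and of loliolide cannot be told apart. The labels do not name separate plants, and the tests therefore measure the spread between these samples, which may be technical. In bulk tissue, fewer cells of a type and less RNA per cell cannot be told apart. The leaf label was checked on the chlorophyll-binding protein genes CAB4 and CAB6A, whose 9 probes were well above background on all 6 arrays. All 4 probes of the glandular trichome genes MTS1, SSTLE1 and TPS12 were also detected, as were 19 of 21 probes of cell cycle genes and 6 of 6 of aquaporin genes listed as root markers. Of 19 probes of fruit ripening genes, 13 were above background on no array.

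No wall enzyme gene passed the test, and the differences were small. Of the 73 tested probes, 0 had a limma adjusted p under 0.05, where 0.783% of all tested probes did (0.77% higher and 0.0134% lower). At an unadjusted p under 0.05 limma counted 18 wall enzyme probes, all higher with loliolide, or 24.7% against 20.1% of all tested probes (14.7% higher and 5.39% lower). The 3 loliolide arrays lay entirely above the 3 methanol arrays for 20 of the 73 probes and entirely below them for 0. This makes 27.4% of the probes without overlap, close to the 29.5% of all tested probes (19.9% above and 9.61% below). Signal was higher with loliolide for 51 of the 73 probes (69.9%), against 60.8% of all tested probes, with a median difference of 0.16 against 0.06. With 1 probe per gene, 23 of 36 wall enzyme genes were higher (63.9%, against 65% of all genes), and the medians were 0.09 and 0.08. Scaling the arrays to their 10 spike-in controls turned the median of the wall enzyme probes to -0.14 and that of all probes to -0.24. With it 26 of the 73 wall enzyme probes were higher (35.6%, against 20.3% of all tested probes). All 10 spike-ins read higher with loliolide, by a median of 0.33, so this scaling lowered the difference of every probe. Under that scaling the difference was 0.26 for EXP1, 0.06 for XTH3, 0.34 for LOC543916, 0.20 for TBG4 and 0.31 for PME2.1, on the probes whose values are given below.

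Of the alternative fits, only those that weight arrays by their quality called members of these families. Different estimates of the weights, the second added after seeing the data, gave 6 wall enzyme probes (8.22%, against 5.08% of all tested probes) and 13 (17.8%, against 9.41%), all higher with loliolide. The 6 probes belong to PME2.1, EXP1, EXP5, XTH3 and LOC543916, and the 13 also to TBG4 and exp9. These weights were lowest for loliolide replicate 3 (0.311 and 0.286) and methanol replicate 3 (0.44 and 0.396). The 95% interval of the difference lay within a 2-fold change either way for 59 of the 73 probes. It reached further for 14, and the difference itself exceeded 2-fold for 1 probe, that of EXPB2.

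**Figure D1:**
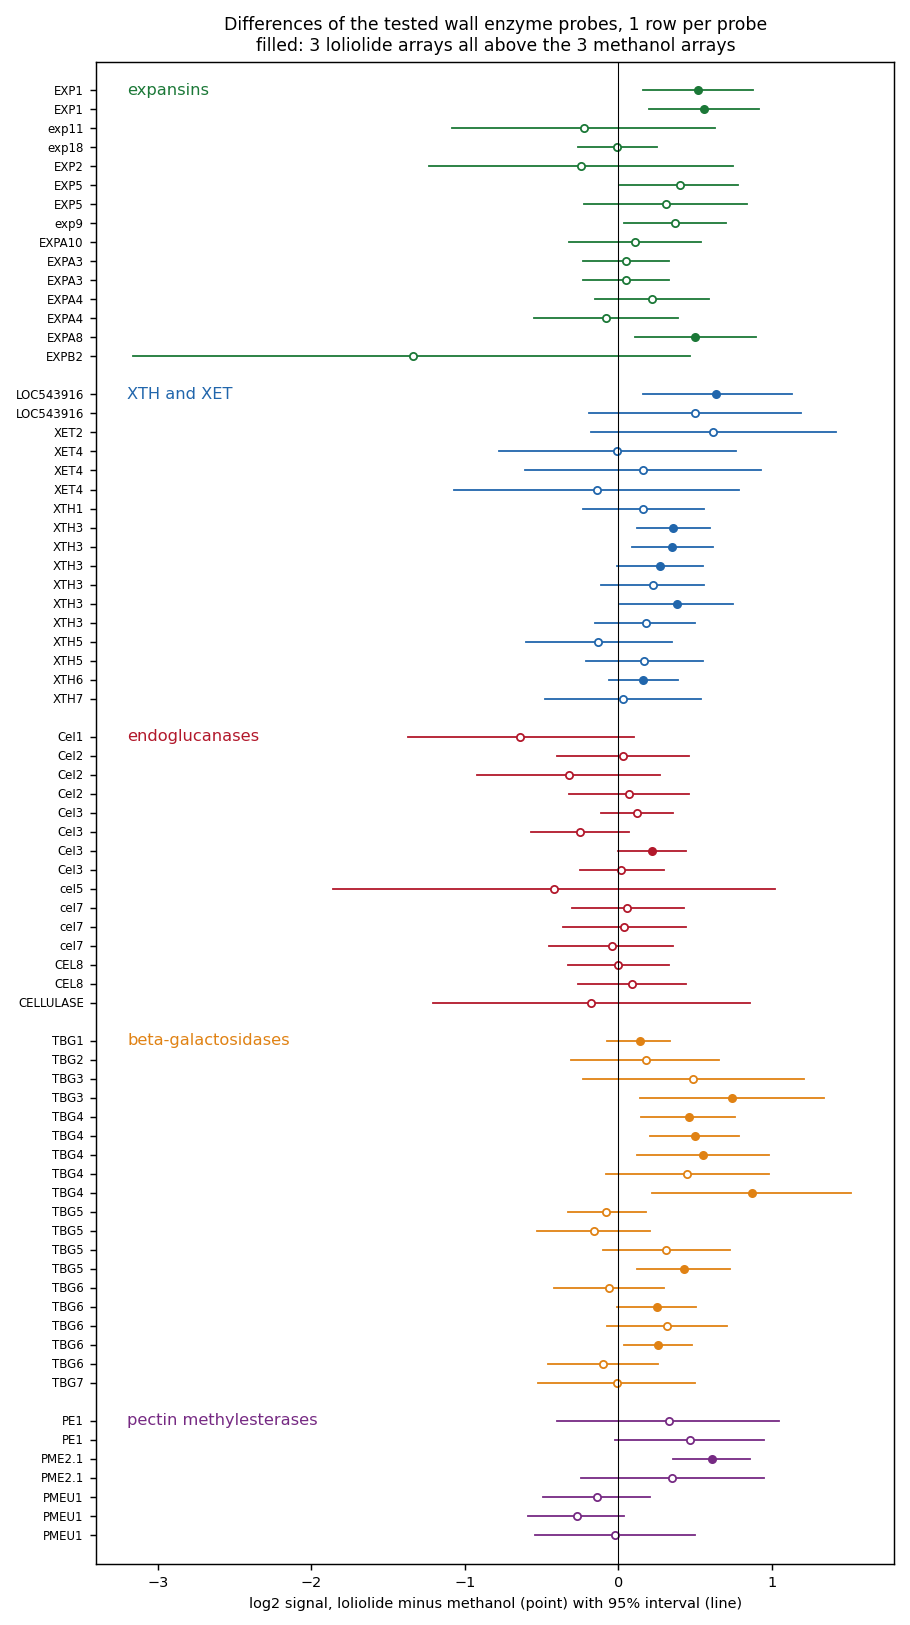
Log2 difference of each tested wall enzyme probe, loliolide minus methanol (horizontal axis), with its 95% interval from limma, grouped by family, 1 row per probe. Filled points mark the 20 probes whose 3 loliolide arrays all lay above the 3 methanol arrays; the only difference beyond 1 in size is that of EXPB2, at -1.34.

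Among the expansins, EXP1 and EXPA8 had probes whose groups did not overlap, and 0 of 15 probes of 11 genes passed. Over the array, 19.9% of all tested probes had loliolide above methanol without overlap. As reported 10 of the 15 probes were higher with loliolide, where 60.8% of all tested probes were. With the spike-in scaling 6 of 15 were higher, where 20.3% of all tested probes were. EXP1 is the expansin best known from fruit softening. Its probe A_96_P155116 read -0.36, -0.61 and -0.62 on the loliolide arrays, against -1.33, -1.10 and -0.84 on the methanol arrays. The difference was 0.56 (SE 0.15, limma adjusted p = 0.133). The second EXP1 probe read 0.88, 0.76 and 0.66 with loliolide, against -0.03, 0.26 and 0.50 with methanol. On both probes every loliolide array lay above every methanol array, and the second difference was 0.52 (limma adjusted p = 0.146).

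EXPA8, known from germinating seeds, had a single probe with a weak signal. It read -5.37, -5.40 and -5.04 with loliolide, against -5.64, -6.07 and -5.63 with methanol, and differed by 0.50 (SE 0.16, limma adjusted p = 0.172). Its groups did not overlap. The difference was smaller under other settings: 0.21 after spike-in scaling, 0.25 after cyclic loess, 0.26 after the normexp correction and 0.27 after quantile normalisation. EXP5 was higher by 0.40 and 0.31 on its 2 probes and exp9 by 0.37, and on each of these probes methanol replicate 3 reached the range of the loliolide arrays.

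Other expansins had a difference near 0 or a wide spread. The signal of exp18, an expansin of meristems and young leaves, was 1.30, 1.45 and 1.24 with loliolide, against 1.38, 1.21 and 1.43 with methanol. Its difference of -0.01 had a 95% interval from -0.26 to 0.25 (limma adjusted p = 0.977). EXPB2, the 1 beta-expansin of the set, read -6.47, -7.92 and -8.79 with loliolide, against -7.10, -7.08 and -4.98 with methanol. The difference was -1.34 with an interval from -3.16 to 0.47 (limma adjusted p = 0.363), and the groups overlapped. This probe was well above background on 1 loliolide array and on 3 methanol arrays, so it entered the test only through the methanol group. Its difference was -0.64 without methanol replicate 3, -0.66 with array weights and -0.06 with the normexp background correction. The second EXPB2 probe was not tested. EXP2, known from elongating hypocotyls, differed by -0.24 and exp11 by -0.22, with SDs between 0.48 and 0.68 among the arrays of a group. EXPA10 (0.11), EXPA3 (0.05 on each of 2 probes) and EXPA4 (0.22 and -0.08) overlapped between the groups.

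**Figure D2:**
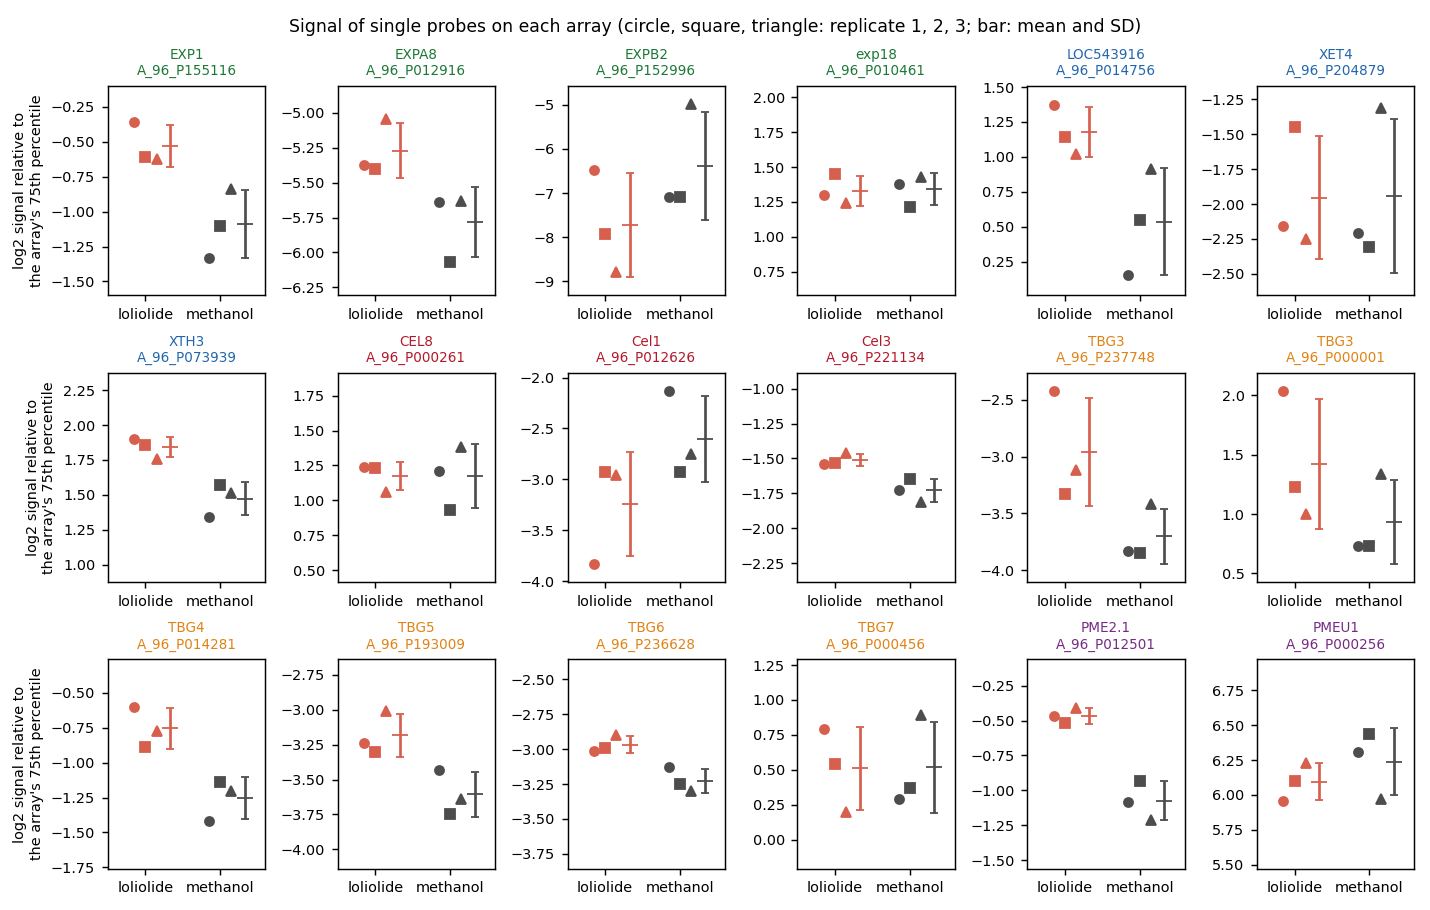
Log2 signal relative to the array's 75th percentile (vertical axis, its own range in each panel) for 18 probes of 17 genes, with loliolide left of methanol. Symbols mark replicates 1 to 3, and the bar gives the mean and SD of 3 arrays; the groups are apart for PME2.1, TBG4, XTH3 and EXP1 and overlap for exp18, XET4, CEL8 and TBG7.

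Of the genes that remodel xyloglucan, XTH3, LOC543916 and XTH6 had probes whose groups did not overlap, and 0 of 17 probes of 8 genes passed. Over the array, 19.9% of all tested probes had loliolide above methanol without overlap. Signal was higher with loliolide for 14 of the 17 probes as reported, against 60.8% of all tested probes. It was higher for 6 of 17 with the spike-in scaling, where 20.3% of all tested probes were higher. XTH3 was measured by 6 probes, all higher with loliolide by 0.18 to 0.38. On the brightest, A_96_P073939, it read 1.90, 1.86 and 1.76 with loliolide, against 1.34, 1.57 and 1.51 with methanol. This difference was 0.36 (SE 0.10, limma adjusted p = 0.139). The groups were apart on 4 of the 6 probes and overlapped on the other 2. Probes of 1 gene share their RNA and are not independent.

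LOC543916 also carries the name LeXTH9, while a separate gene has the symbol XTH9, with 1 gene between them in the annotation. The brighter probe of LOC543916 read 1.37, 1.14 and 1.02 with loliolide, against 0.15, 0.55 and 0.91 with methanol. The groups lay apart, with methanol replicate 3 just under loliolide replicate 3, and the difference was 0.64 (SE 0.20, limma adjusted p = 0.166). Its second probe was higher by 0.50 with overlapping groups. XET2 was higher by 0.62 with an interval from -0.18 to 1.42, and methanol replicate 1 stood apart from the rest. This gene read 3.43, 3.21 and 3.75 with loliolide, against 2.09, 3.39 and 3.04 with methanol.

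XET4, known from the endosperm of germinating seeds, varied as much within each group as between them. Its brightest probe read -2.16, -1.45 and -2.25 with loliolide, against -2.21, -2.31 and -1.31 with methanol, a difference of -0.01 with an interval from -0.78 to 0.77 (limma adjusted p = 0.991). Loliolide replicate 2 and methanol replicate 3 were the high arrays on all 3 XET4 probes, whose differences were -0.01, 0.16 and -0.14. XTH6 was higher by 0.16 with groups that did not overlap, and XTH1 (0.16), XTH7 (0.03) and the 2 probes of XTH5 (-0.13 and 0.17) overlapped.

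The endoglucanases had a median difference of 0.02 over 15 probes of 7 genes, of which 0 passed. With the spike-in scaling the median was -0.28. Signal was higher for 9 of the 15 probes as reported, for 5 of 15 with median centring and for 0 of 15 with the spike-in scaling. Of all tested probes 60.8%, 52.7% and 20.3% were higher in these settings. Cel1, known from flower abscission, had the widest gap by its brightest probe. It read -3.83, -2.93 and -2.96 with loliolide, against -2.13, -2.93 and -2.75 with methanol. The groups met at -2.93, and the difference was -0.64 (SE 0.31, limma adjusted p = 0.299), or -0.34 without loliolide replicate 1.

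Cel3, a membrane-anchored endoglucanase, was the 1 gene of this family with a probe whose groups did not overlap. That probe, A_96_P221134, read -1.54, -1.53 and -1.46 with loliolide, against -1.73, -1.65 and -1.81 with methanol. This was higher by 0.22 (SE 0.09, limma adjusted p = 0.24). Its 3 other probes differed by 0.12, 0.02 and -0.25. CEL8 read 1.24, 1.23 and 1.06 with loliolide, against 1.21, 0.93 and 1.38 with methanol. Its difference of 0.00 had an interval from -0.33 to 0.33 (limma adjusted p = 0.992), and its second probe differed by 0.09. The genes cel5 (-0.42), CELLULASE (-0.18), Cel2 (-0.32 to 0.07 on 3 probes) and cel7 (-0.04 to 0.06 on 3 probes) overlapped. The range within the methanol group of cel5, -3.35 to -1.37, was wider than any difference of this family.

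Among the beta-galactosidases, TBG4 had the lowest p, and 0 of 19 probes of 7 genes passed. The groups were separate, with loliolide above, on 9 of the 19 probes, of which 4 belong to TBG4, where 19.9% of all tested probes had loliolide above methanol without overlap. Signal was higher for 14 of the 19 probes, with a median of 0.31, against 60.8% and 0.06 over all tested probes. With the spike-in scaling it was higher for 10 of 19, with a median of 0.02. Under that scaling 20.3% of all tested probes were higher, with a median of -0.24. TBG4 encodes the galactanase that acts during fruit softening. All of its 5 probes were higher with loliolide, by 0.45 to 0.87, and the groups were apart on 4 of them. Probe A_96_P014281 read -0.60, -0.89 and -0.77 with loliolide, against -1.42, -1.14 and -1.20 with methanol. Here the difference was 0.50 (SE 0.12, limma adjusted p = 0.113). Its brightest probe differed by 0.46 (limma adjusted p = 0.14), and the dimmest gave the largest value, 0.87.

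TBG3 was higher on both of its probes. Among the fits without 1 array, both differences were smallest without loliolide replicate 1. Probe A_96_P237748 read -2.42, -3.33 and -3.12 with loliolide, against -3.83, -3.85 and -3.42 with methanol, and was higher by 0.74 (SE 0.25, limma adjusted p = 0.183). The brighter probe read 2.04, 1.23 and 1.00 with loliolide, against 0.73, 0.73 and 1.34 with methanol, a difference of 0.49 with overlapping groups. Loliolide replicate 1 was the high array on both, and without it the differences were 0.47 and 0.18.

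TBG5 and TBG6 gave different answers on different probes. On its dimmest probe TBG5 read -3.24, -3.30 and -3.01 with loliolide, against -3.43, -3.75 and -3.64 with methanol, and differed by 0.43 (SE 0.13, limma adjusted p = 0.156). Its brightest probe differed by -0.08 and its others by -0.16 and 0.31. TBG6, a gene of young fruit, read -3.01, -2.99 and -2.90 with loliolide, against -3.13, -3.25 and -3.30 with methanol on probe A_96_P236628. That difference was 0.26 (SE 0.09, limma adjusted p = 0.199), or -0.04 with the spike-in scaling, while the brightest TBG6 probe differed by -0.06 and its others by -0.10 to 0.32. The groups were apart on 2 of the 5 TBG6 probes and on 1 of the 4 TBG5 probes. TBG7 read 0.79, 0.54 and 0.20 with loliolide, against 0.29, 0.37 and 0.89 with methanol, a difference of -0.01 with an interval from -0.52 to 0.50 (limma adjusted p = 0.985). TBG1 was higher by 0.14 with groups apart, and TBG2 by 0.18 with overlapping groups.

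The pectin methylesterase PME2.1, known from fruit, came closest to the threshold of all 36 genes, and PMEU1, expressed in many tissues, was lower on each of its 3 probes without passing. Of 7 tested probes of 3 genes, 0 passed and 4 were higher, also with the spike-in scaling. Of all tested probes 60.8% were higher as reported and 20.3% with the spike-in scaling. Among the probes of this family well above background on all 6 arrays, 3 of 6 were higher, against 59.8% of all such probes. PME2.1 read -0.47, -0.52 and -0.41 with loliolide, against -1.08, -0.93 and -1.21 with methanol on probe A_96_P012501. Both groups were narrow and lay apart, and the signal was 1.53-fold that of methanol (difference 0.61, SE 0.10, limma adjusted p = 0.0617). The adjusted p was 0.0513 with 1 probe per gene, 0.109 to 0.193 without each array in turn, 0.295 with the spike-in scaling and 0.0203 and 0.0116 with array weights. Its second tested probe was higher by 0.35 with overlapping groups, and its 2 other probes were too dim to be tested.

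PMEU1 read 5.96, 6.10 and 6.23 with loliolide, against 6.31, 6.44 and 5.97 with methanol on its brightest probe. The difference was -0.14 with an interval from -0.49 to 0.21 (limma adjusted p = 0.625), and its other probes differed by -0.27 and -0.02. PE1, also named PME1.9, is the neighbour of PME2.1 in the annotation with no gene between them. Of 11 PE1 probes, 7 were above background on no array and 1 was on all 6. The 2 tested PE1 probes were higher by 0.33 and 0.47 with overlapping groups. The probe with 0.47 was well above background on 3 loliolide arrays and 1 methanol array, so it entered the test only through the loliolide group. The arrays' files give no probe sequences, and whether relatives as close as these share signal was not tested.

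Arrays of the same group also differed in these genes. The median SD between arrays of a group was 0.224 over the 73 wall enzyme probes, against 0.168 over all tested probes. Within the loliolide group, replicate 1 was the highest array for 44 of the 73 probes (60.3%, against 32.1% of all tested probes). Replicate 3 was the lowest for 46 of them (63%, against 37.5%). In the methanol group replicate 3 was the highest for 38 of the 73 probes (52.1%, against 38.1%).

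Most expansin probes followed this order. Loliolide replicate 3 was the lowest of its group for 13 of 15 expansin probes, and methanol replicate 3 was the highest of its group for 14 of 15. The pectin methylesterases, 7 probes of 3 genes, showed the opposite. Loliolide replicate 3 was the highest of its group for 5 of 7 probes, against 45.6% of all tested probes. Methanol replicate 3 was the lowest of its group for 5 of 7, against 41.8%. The leaf markers CAB4 and CAB6A moved with the expansins: all 9 of their probes were highest on loliolide replicate 1 and lowest on loliolide replicate 3, and highest on methanol replicate 3. The summed signal of these 9 probes was 6.58, 5.73 and 5.12 on the log2 scale with loliolide, against 5.61, 5.16 and 6.21 with methanol. Other lists followed this order in part. Loliolide replicate 3 was lowest for 13 of 19 cell cycle probes, 4 of 4 trichome probes and 6 of 6 aquaporin probes, and methanol replicate 3 was highest for 15 of 19, 3 of 4 and 3 of 6. Loliolide replicate 1, the highest array for 11 of 15 expansin probes, was highest for 6 of 19 cell cycle probes, 1 of 4 trichome probes and 4 of 6 aquaporin probes. Loliolide replicate 2 was the highest for 12, 3 and 2 of these probes. The part of these cell types in the expansin signals was not tested. The array of loliolide replicate 3 was also the dimmest before scaling, with a 75th percentile of 817.7, against 1048 to 1117 on the 5 others.

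**Figure D3:**
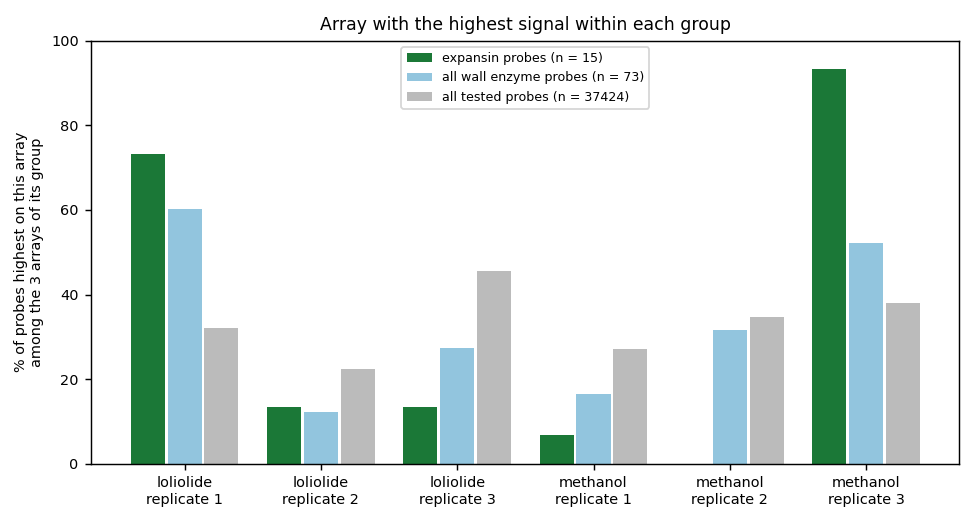
Share of probes (vertical axis, %) whose highest signal within their group of 3 arrays fell on the array named below, loliolide left of methanol, for 15 expansin probes, all 73 wall enzyme probes and all 37424 tested probes. Methanol replicate 3 was highest for 93.3% of the expansin probes and loliolide replicate 1 for 73.3%, against 38.1% and 32.1% of all tested probes.

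Other genes were read from a list of name prefixes meant for wall polymers, their synthesis and their inhibitors. It matched 40 probes of 18 genes. Most of its tested probes belong to AGP-S2, AgpL1, AGPL3, TomloxE and the CEVI genes, which are not wall genes by function. Of its 23 tested probes 18 were higher and 5 lower with loliolide, with a median difference of 0.27, and 1 passed. Over all tested probes 60.8% were higher, the median was 0.06 and 0.783% passed. The list includes the polygalacturonases, which cut pectin chains, and they gave its widest gaps, described here after their values were seen. TAPG1 was higher by 1.56 (SE 0.55, limma adjusted p = 0.197) and TAPG2 by 1.79 (SE 0.56, limma adjusted p = 0.161). Both were highest on loliolide replicate 3, with groups that did not overlap. TAPG4 was well above background on the 3 loliolide arrays and on 0 methanol arrays. PG2 had 1 tested probe, well above background on 3 loliolide arrays and 1 methanol array (difference 1.1), while its other probes were above background on no array. Both probes entered the test only through the loliolide group, where they are high, and neither passed. The probe that passed belongs to AGP-S2, a subunit of the starch enzyme ADP-glucose pyrophosphorylase and no wall enzyme, which rose by 0.59 (SE 0.09, limma adjusted p = 0.0475), while its 3 other probes differed by 0.01 to 0.20. The mannanase genes MAN1, MAN2 and Man4, XYL1 and ext1 had no probe above background on any array. Xegip, which encodes an inhibitor of a fungal xyloglucan-specific endoglucanase and was singled out after its values were seen, differed by 0.28 (SE 0.23, limma adjusted p = 0.526). The authors' deposited table of 27 responsive probes lists 0 of the 85 wall enzyme probes. The array holds 43603 non-control probes, so with a list this short the 0 says little about these families.

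**Figure D4:**
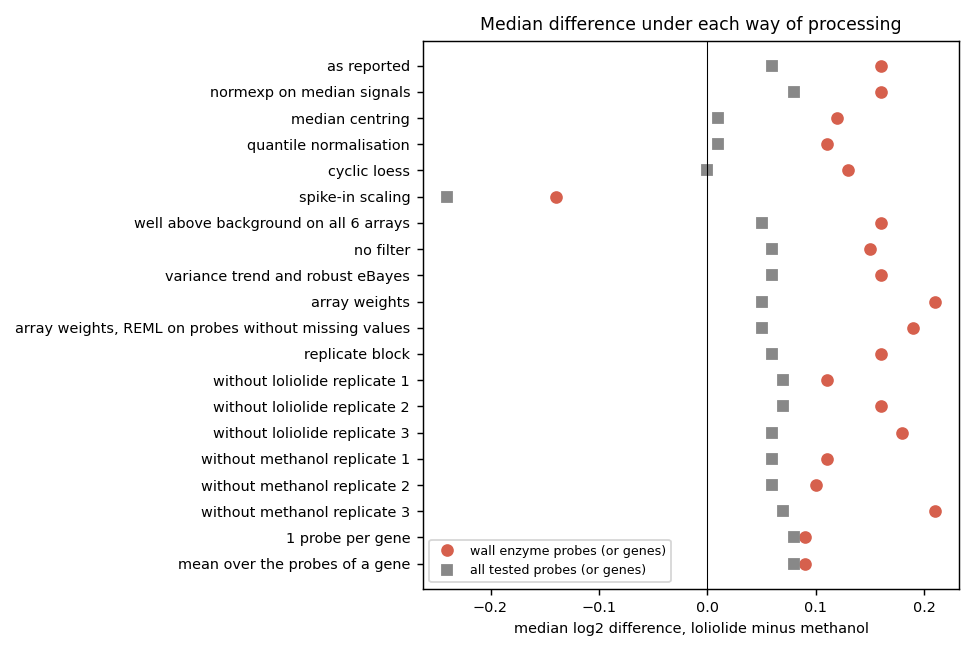
Median log2 difference, loliolide minus methanol (horizontal axis), of the wall enzyme probes (circles) and of all tested probes (squares) under each way of processing; the last 2 rows count genes. The wall enzyme median lies between 0.09 and 0.21 except with the spike-in scaling, where it is -0.14, against -0.24 for all tested probes.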

How the data were processed

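RNA of the 6 samples was labelled with cyanine-3 per the labels' protocols. The authors deposited scanner output. Its spot intensity had been corrected for background and spatial trend in Agilent Feature Extraction (11.5.1.1 per the file headers, 9.1 per the submitters' processing notes). The authors also deposited log2 ratios for 27 probes, used here only for their probe names. Deposited flags mark spots well above background and outliers.

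From the log2 of the processed signal, the 75th percentile of the non-control spots of the same array was subtracted. Outlier spots (0 to 5 per array) were left out and spots of a probe averaged. The groups were compared in R 4.3.3 with limma 3.58.1 (lmFit, eBayes), p-values were adjusted over all 37424 tested probes after Benjamini and Hochberg at a threshold of 0.05, and the fit was tested on simulated data. Genes were named through the accession on the array and RefSeq's table of assembly SLM_r2.1. No coordinates are given, since the array names no build. The number of arrays limits the precision.

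Members, lists and tests were chosen with earlier results of these data known. Values per array were given for genes with an unadjusted p under 0.05 and separate groups, up to 12, and for the genes of each family whose brightest probe differed most and least; a few others were added after their values were seen. Alternatives covered background correction, scaling, filters, variance model, array weights, replicate numbers, probes per gene and each array left out.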

Additional observations from a re-analysis of the deposited data

How the results depend on the processing

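The REML array weights were chosen after seeing the data. A block for the slide was not run, since each slide carries 1 group. As reported 293 of all probes and 0 wall enzyme probes changed. The first count was 95 with normexp on median signals, 189 with median centring, 107 with quantile normalisation, 102 with cyclic loess, 65 with the spike-in scaling, 190 with probes above background on every array and 159 with a variance trend. It was 1902 with array weights and 3523 with REML weights, where 6 and 13 wall enzyme probes changed, and 0 to 105 without each array in turn. With the replicate block it was 0 (lowest limma adjusted p of a wall enzyme probe 0.243), and the block changed no call of a wall enzyme probe. Same-numbered arrays deviated with correlations of -0.16, -0.14 and -0.46. These values cannot decide whether same-numbered samples were paired, and the authors' deposited ratios are also numbered by replicate. The wall enzyme count stayed at 0 in all settings without weights. The 51 higher probes became 26 with the spike-in scaling, where the median was -0.14. Over all tested probes 20.3% were then higher, with a median of -0.24. With 1 probe or the mean of the probes per gene, 23 or 26 of 36 genes were higher. Without each array the count of higher probes ranged from 47 to 65.

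Of 341 comparisons of the 18 probes described, 304 kept direction and call, 9 gained the call (with weights) and 28 turned their sign, nearly all of differences close to 0. No wall enzyme probe was called as reported, so no call could be lost. The other filters, the variance trend and the replicate block leave a probe's difference as it was, so there no sign could turn. The 304 is therefore no measure of stability. XET4 was 0.01 with normexp, 0.40 and 0.49 with the weights, 0.00 with the mean of its probes and -0.26 to 0.31 without each array. CEL8 was -0.04 with median centring, -0.01 with quantile normalisation and with cyclic loess, -0.30 with the spike-in scaling and -0.12 to 0.11 without each array. TBG6 was -0.04 and Cel3 -0.08 with the spike-in scaling. With weights, exp18 was 0.05 and 0.06 and TBG7 0.22 in both, and without each array they ranged from -0.07 to 0.04 and from -0.15 to 0.18. With 1 probe per gene, TBG5 was -0.08 and TBG6 -0.06. The cause was not tested, except that 1 probe per gene takes another probe for TBG5 and TBG6. Signal over background limits PE1, EXPB2 and the dim PME2.1 probes.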
